A study of Mus musculus with 17 samples.

Results

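The genes of T cell signaling and costimulation described here are the T cell receptor chains *Cd3e*, *Cd3g* and *Cd3d*, the kinases *Lck* and *Prkcq*, the costimulatory receptors *Cd28*, *Cd27* and *Cd226*, and the cytokine receptor *Il27ra*. They were chosen by gene symbol, with earlier results of these data known. They make up 9 of the 31245 genes in the count table, and all 9 passed the filter on low counts. Lungs of 17 mice were measured by RNA sequencing, one library per mouse. WT mice were Sv/129, 2 on vehicle (V) and 3 on PFOA. KO mice were labelled PPARa KO and carry no functional mouse PPARα by design, 3 on vehicle and 3 on PFOA. KI mice carry human PPARα in place of the mouse receptor, 3 on vehicle and 3 on PFOA. PFOA (perfluorooctanoic acid, labelled Hi-PFOA) was given at 6.2 μg/mL in drinking water with 0.5% sucrose for 14 weeks, and vehicle mice drank the sucrose water. Mice were on a custom diet from 6 weeks of age. WT mice were bought from a supplier, whereas KO and KI mice came from one breeding colony, so genotype and colony cannot be told apart.

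A T cell recognises antigen through a receptor whose signal is carried into the cell by the CD3 chains. LCK phosphorylates the tails of these chains, and PKCθ, the product of *Prkcq*, passes the signal on toward NF-κB. CD28, CD27 and CD226 are surface receptors that bind ligands on other cells and strengthen the response, and IL27RA is the specific subunit of the receptor for interleukin 27. Lung holds few T cells beside epithelium and endothelium. *Cd226*, *Cd27* and *Il27ra* are also used by natural killer (NK) cells, and *Prkcq* is also known from skeletal muscle.

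The 3 CD3 genes lie side by side on chromosome 9 and code for subunits of one complex, so the 250 bases before their RefSeq starts are printed to show what these neighbours share, together with those before the upstream start of *Lck*, the gene with the highest level per length. All are from GRCm38.p6, read 5′ to 3′ along the gene. *Cd3g* starts on the minus strand (chr9:44980432-44980681), *Cd3d* on the plus strand (chr9:44981536-44981785), *Cd3e* on the minus strand (chr9:45009612-45009861) and *Lck* on the minus strand of chromosome 4 (chr4:129573642-129573891). Capitals mark matches to any of 7 short motifs searched on both strands.
Cd3g: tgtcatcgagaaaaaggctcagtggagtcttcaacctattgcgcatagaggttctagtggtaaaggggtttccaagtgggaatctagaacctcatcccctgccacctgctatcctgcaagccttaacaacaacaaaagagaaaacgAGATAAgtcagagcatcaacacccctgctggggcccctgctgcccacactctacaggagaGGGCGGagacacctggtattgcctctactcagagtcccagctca
Cd3d: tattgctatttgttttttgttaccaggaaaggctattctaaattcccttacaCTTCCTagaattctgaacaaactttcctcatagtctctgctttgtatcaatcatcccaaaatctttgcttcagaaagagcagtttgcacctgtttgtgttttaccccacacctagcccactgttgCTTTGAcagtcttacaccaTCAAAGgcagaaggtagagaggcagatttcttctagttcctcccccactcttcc
Cd3e: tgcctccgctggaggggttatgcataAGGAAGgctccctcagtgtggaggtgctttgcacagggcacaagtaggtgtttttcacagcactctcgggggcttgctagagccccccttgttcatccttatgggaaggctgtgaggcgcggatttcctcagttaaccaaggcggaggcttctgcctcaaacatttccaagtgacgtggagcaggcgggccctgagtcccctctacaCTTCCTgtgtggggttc
Lck: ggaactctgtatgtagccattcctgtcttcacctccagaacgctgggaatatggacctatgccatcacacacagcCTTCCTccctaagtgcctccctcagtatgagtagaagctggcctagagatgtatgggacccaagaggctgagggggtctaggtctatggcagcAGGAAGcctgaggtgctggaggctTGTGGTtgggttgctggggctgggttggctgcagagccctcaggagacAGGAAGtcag

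The motifs were the Ets core AGGAAG (in 29.5% of all 32851 windows of this length), the Runx core TGTGGT (14%), the TCF/LEF core CTTTGA (13.8%), the Gata core AGATAA (9.99%), the E-box CAGCTG (13%), the GC box GGGCGG (32.7%) and the TATA box TATAAA (12.4%). None of the matches overlapped another. *Cd3d* held an Ets match 198 bases before its start and TCF/LEF matches at 73 and 54 bases. *Cd3e* held Ets matches at 224 and 17 bases, and *Lck* held 3 Ets matches and a Runx match 58 bases before the start. In the gene positions given below *Cd3e* begins further upstream, at 45009627, so its match at 17 bases lies mostly inside that gene. *Cd3g* held a Gata match at 104 bases and a GC box at 44, and shared no searched motif with its 2 CD3 neighbours. The TATA and E-box letters were in none of the 4 windows. These are matches of letters and were not tested for binding.

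*Cd3g* (chr9:44969572-44980431, minus strand) and *Cd3d* (chr9:44981786-44987339, plus strand) point away from each other across a gap of 1354 bases, and *Cd3e* (chr9:44998740-45009627, minus strand) follows 11400 bases beyond *Cd3d*. *Lck* lies on chr4:129548344-129573641 (minus strand), *Prkcq* on chr2:11172108-11301222 (plus), *Cd28* on chr1:60716800-60773359 (plus), *Cd27* on chr6:125232622-125237010 (minus), *Il27ra* on chr8:84030294-84042589 (minus) and *Cd226* on chromosome 18. *Cd27* overlaps *Vamp1* and *Il27ra* overlaps *Palm3*, each on the opposite strand. *Cd3e* overlaps the antisense gene *Gm48719* and, on its own strand, *Gm48720*. *Prkcq* overlaps 3 genes, 2 of them on its own strand, and these and *Gm48720* are marked in the annotation as awaiting experimental evidence. How the authors' counting used the strand is not given in the sources used here, so reads of *Cd27*, *Il27ra*, *Cd3e* and *Prkcq* may be mixed with those of partners on the opposite strand, and those of *Cd3e* and *Prkcq* with partners on their own strand whatever the setting.

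Levels are given as CPM, the usual scaling of a gene's count to its library's total, after TMM scaling, which sets libraries of unequal depth and composition on one scale. Libraries held from 4116118 to 9237356 counts, and a floor of 3 counts corresponded to between 0.319 and 0.688 CPM. In 2 libraries protein-coding genes took a lower share of the counts, 65.3% in WT V mouse 122 and 61.3% in KO V mouse 137, against at least 74.4% in the others. *Ppara* was not lower in the libraries labelled KO: it averaged 10.4 CPM ± 1.29 (SD, n = 3) in KO V against 6.67 CPM ± 0.763 (SD, n = 2) in WT V, and which exons the counts cover is not known. All 3 KO PFOA libraries carried one second index (the sequencing barcode in the column names) that no KO V library had, so index and exposure cannot be told apart in KO. In whole lung, more T cells and more RNA per T cell cannot be told apart.

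Per kilobase of exon the 9 genes lay between 0.616 and 2.27 CPM. Averaged over the 17 libraries, *Lck* had 2.27 and *Prkcq* 2.05 CPM per kb, *Cd3g* 1.76, *Cd27* 1.61, *Cd3e* 1.54, *Il27ra* 1.53, *Cd226* 1.48 and *Cd3d* 1.05. *Cd28* was lowest with 0.616 CPM per kb. The estimated counts behind these levels ran from 4 (*Cd27* and *Cd28* in WT V mouse 122) to 162 (*Prkcq* in WT PFOA mouse 65).

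Summed over the 9 genes, WT lung held 25.8 CPM ± 3.31 (SD, n = 2) on vehicle and 63.6 CPM ± 7.35 (SD, n = 3) on PFOA. KO lung held 44.2 CPM ± 3.75 on vehicle and 78.3 CPM ± 15.5 on PFOA (SD, n = 3 each). KI lung held 54.2 CPM ± 5.19 on vehicle and 55.1 CPM ± 4.33 on PFOA (SD, n = 3 each). Both WT V libraries, with 28.1 CPM in mouse 107 and 23.4 CPM in mouse 122, lay below the other 15, whose lowest sum was 41.4 CPM in KO V mouse 145. WT V was the lowest group by mean for 8 of the 9 genes (26.1% of all 26946 genes tested), *Cd3d* being the exception, and KO PFOA the highest for 7 (14.1%).

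**Figure D1:**
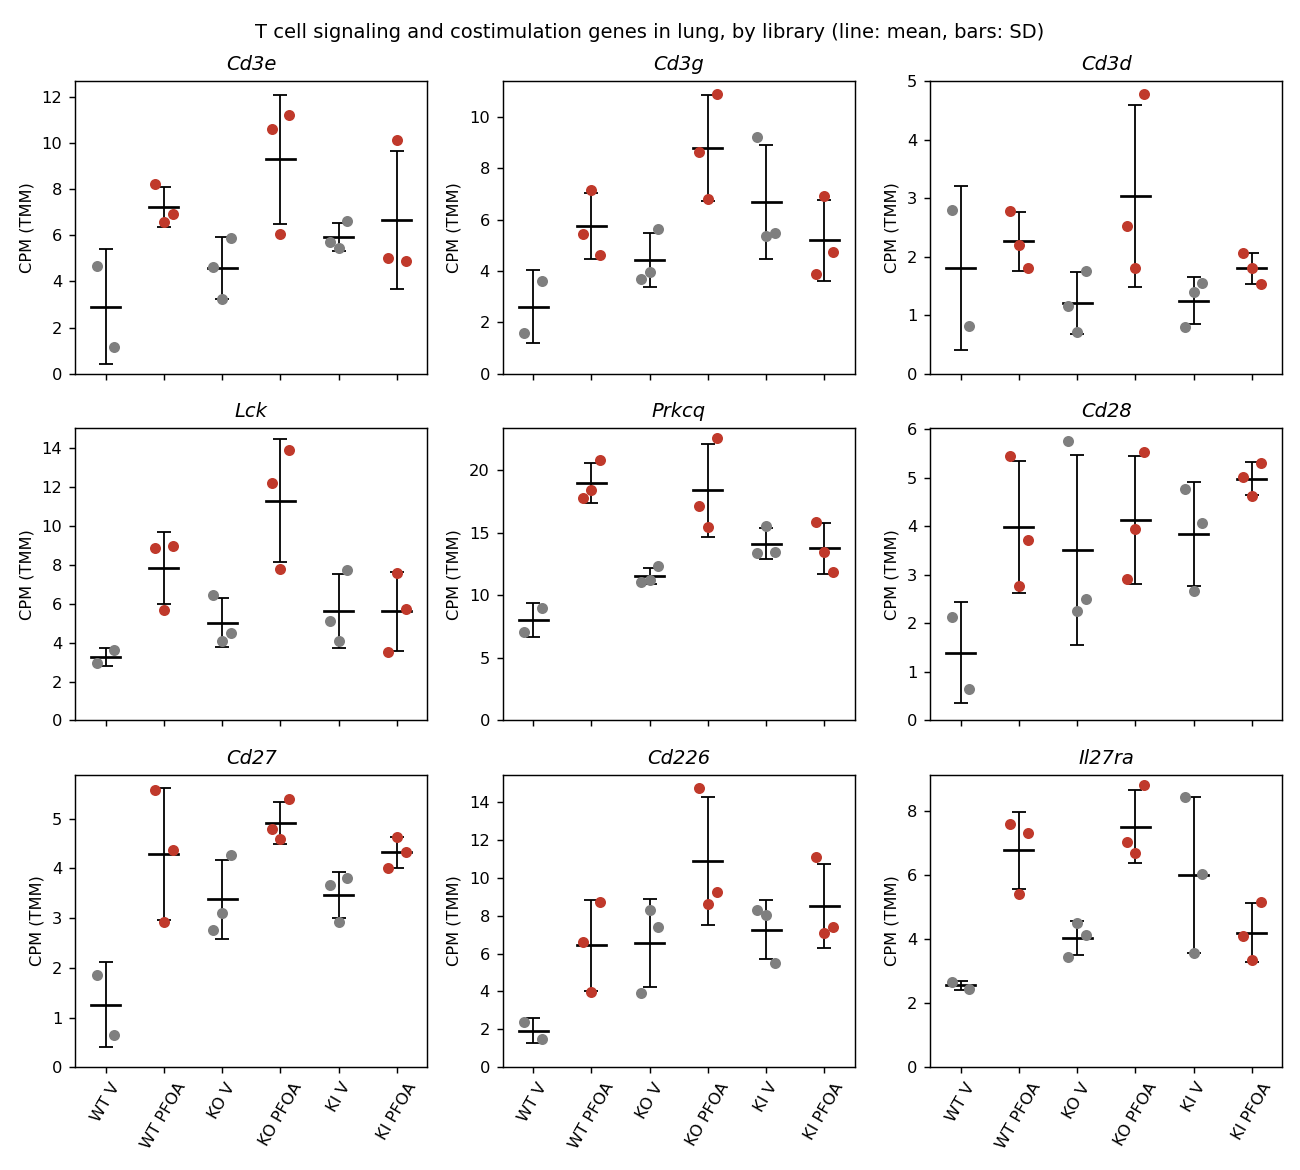
TMM-scaled CPM of the 9 genes (vertical axes, each from 0) in the 6 groups (horizontal axis), with one point per library (grey vehicle, red PFOA), the group mean as a line and the SD as bars. Both WT V points lie below all other libraries for *Cd3g*, *Cd28*, *Cd27*, *Prkcq*, *Cd226* and *Il27ra*, as for 1.43% of all genes tested, and the 3 PFOA points of KO lie above its 3 vehicle points in every panel but that of *Cd28*.

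The CD3 chains are the signaling subunits of the T cell receptor complex. *Cd3e* had 4.66 and 1.15 CPM in WT V mice 107 and 122, and 8.24, 6.58 and 6.94 CPM in WT PFOA mice 50, 56 and 65. In KO it had 4.61, 3.24 and 5.90 CPM on vehicle and 10.6, 6.07 and 11.2 CPM on PFOA. In KI it had 5.73, 5.47 and 6.61 CPM on vehicle and 5.02, 10.2 and 4.89 CPM on PFOA. The vehicle and PFOA values of *Cd3e* did not overlap in WT or KO and did so in KI, where mouse 80 alone was high. 

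*Cd3g* had 1.60 and 3.60 CPM in WT V and 5.45, 7.16 and 4.63 CPM in WT PFOA. In KO it had 3.69, 3.94 and 5.65 CPM on vehicle and 8.64, 6.81 and 10.9 CPM on PFOA. In KI its highest value, 9.23 CPM in mouse 102, belonged to the vehicle group, the others being 5.35 and 5.48 CPM, against 3.88, 6.94 and 4.75 CPM on PFOA. For this chain too the exposure groups were apart in WT and KO and overlapped in KI. 

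*Cd3d* was the scarcest chain, with 2.80 and 0.819 CPM in WT V and 2.79, 2.19 and 1.80 CPM in WT PFOA. KO had 1.15, 0.704 and 1.76 CPM on vehicle and 1.81, 2.52 and 4.78 CPM on PFOA, mouse 155 being the highest of all 17. KI had between 0.796 and 1.55 CPM on vehicle and between 1.54 and 2.06 CPM on PFOA. It was the only one of the 9 genes whose WT groups overlapped.

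The pair of WT V lungs ordered the 3 chains differently. Mouse 107 had 35 *Cd3e* counts, an exact Poisson 95% interval of 3.25 to 6.48 CPM, and mouse 122 had 7, an interval of 0.461 to 2.36 CPM. *Cd3d* went the same way, with 21 counts in mouse 107 and 5 in mouse 122, intervals of 1.73 to 4.28 CPM and 0.266 to 1.91 CPM that overlapped. *Cd3g* went the other way, with 12 counts in mouse 107 and 22 in mouse 122, and its intervals, 0.826 to 2.79 CPM and 2.26 to 5.46 CPM, overlapped too. These intervals cover counting error only.

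*Lck*, the kinase that acts first on the CD3 tails, had 2.93 and 3.60 CPM in WT V and 8.87, 5.70 and 9.0 CPM in WT PFOA. In KO it had 6.45, 4.08 and 4.52 CPM on vehicle and 12.2, 7.77 and 13.9 CPM on PFOA. In KI it had 5.09, 4.07 and 7.73 CPM on vehicle and 3.54, 7.58 and 5.73 CPM on PFOA. KO PFOA mice 155 and 52 held the highest values of all 17 libraries, and the KI groups spanned almost the same range.

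*Prkcq* was the best counted of the 9, with at least 48 counts per library. It had 7.06 and 9.01 CPM in WT V and 17.7, 18.4 and 20.8 CPM in WT PFOA. KO had 11.1, 11.3 and 12.3 CPM on vehicle and 17.1, 15.4 and 22.6 CPM on PFOA. KI had 13.4, 15.5 and 13.5 CPM on vehicle and 15.9, 13.5 and 11.9 CPM on PFOA. Vehicle and PFOA values were apart in WT and KO, and the KI groups interleaved. Muscle RNA varied widely between these lungs: 7 markers of skeletal and cardiac muscle, all above 0 in every library, summed to between 243 and 7172 CPM. Most of the sum was cardiac, with the heart myosin *Myh6* averaging 1519 CPM and the muscle creatine kinase *Ckm* 11.9 CPM. They summed to 736 and 451 CPM in WT V and to 355, 561 and 4211 CPM in WT PFOA mice 50, 56 and 65. The part of muscle RNA in the *Prkcq* values was not tested.

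*Cd28*, the main costimulatory receptor of resting T cells, had 2.13 and 0.655 CPM in WT V and 5.45, 2.78 and 3.73 CPM in WT PFOA. KO had 5.76, 2.25 and 2.51 CPM on vehicle and 2.92, 3.94 and 5.53 CPM on PFOA. KI had 4.78, 2.67 and 4.08 CPM on vehicle and 5.02, 4.63 and 5.31 CPM on PFOA. KO V mouse 137, a library of low protein-coding share, held the highest value of all, and the KO groups overlapped.

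*Cd27*, a receptor of the TNF receptor family on naive and memory T cells, had 1.86 and 0.655 CPM in WT V and 5.58, 2.92 and 4.37 CPM in WT PFOA. KO had 2.76, 3.10 and 4.27 CPM on vehicle and 4.78, 4.58 and 5.38 CPM on PFOA. KI had 3.66, 2.93 and 3.80 CPM on vehicle and 4.0, 4.63 and 4.33 CPM on PFOA. It was the one gene of the 9 whose PFOA libraries lay above the vehicle libraries in all 3 genotypes. Its differences in KO and KI did not reach an unadjusted p under 0.05. Such a separation held for 11.6% of all genes in WT, 6.82% in KO and 4.45% in KI, and the share in all 3 was not counted.

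*Cd226*, an adhesion and costimulatory receptor that T cells and NK cells both carry, had 2.40 and 1.47 CPM in WT V and 6.59, 3.95 and 8.74 CPM in WT PFOA. KO had 3.92, 8.30 and 7.41 CPM on vehicle and 14.7, 8.62 and 9.27 CPM on PFOA. KI had 8.28, 8.02 and 5.48 CPM on vehicle and 11.1, 7.07 and 7.41 CPM on PFOA. Both WT V lungs were below every KO and KI lung of either exposure.

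*Il27ra* had 2.66 and 2.46 CPM in WT V, the closest pair of any gene, and 7.60, 5.41 and 7.32 CPM in WT PFOA. KO had 3.46, 4.50 and 4.14 CPM on vehicle and 7.04, 6.71 and 8.82 CPM on PFOA. KI had 8.44, 3.56 and 6.05 CPM on vehicle and 4.11, 3.34 and 5.17 CPM on PFOA. WT and KO were apart by exposure and higher on PFOA, and in KI the vehicle mean was the higher one with overlapping values.

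When the groups of each gene were ordered by mean, neighbours in that order overlapped nearly everywhere. The one gap lay between WT V and the next group, for *Cd3g*, *Lck*, *Prkcq*, *Cd28*, *Cd27*, *Cd226* and *Il27ra*. WT V was the lowest group and apart from the next for 2.80% of all genes tested. That next group was WT PFOA for *Cd226* and KO V for the others. No neighbouring groups were apart for *Cd3e* or *Cd3d*.

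The first question of the design was what PFOA did within each genotype. In WT all 9 genes had a positive fold change with a median of 1.28 on the log2 scale, against 0.04 over all 26946 genes tested. A gene was called where its adjusted p was under 0.2 and its fold over 2, the thresholds of the study. By edgeR's quasi-likelihood test no gene at all was called (0%), and so 0 of the 9. At an unadjusted p under 0.05, 8 of the 9 were higher on PFOA, the exception being *Cd3d*, where 3.12% of all genes were. The same 8 had all PFOA libraries above both vehicle libraries, as did 11.6% of all genes. With the library index as a covariate the 8 at an unadjusted p under 0.05 became 6. *Cd27* had the largest log2 difference, 1.72 ± 0.41 (SE), with an edgeR adjusted p of 0.456. *Prkcq* had the smallest error, 1.24 ± 0.22 (SE), and an edgeR adjusted p of 0.304. *Cd226* (1.71 ± 0.43), *Cd28* (1.47 ± 0.52), *Il27ra* (1.40 ± 0.35), *Cd3e* (1.28 ± 0.46), *Lck* (1.27 ± 0.39) and *Cd3g* (1.16 ± 0.41) lay between 1 and 2 on the log2 scale, and *Cd3d* was at 0.29 ± 0.56. Of all 26946 genes DESeq2 called 24 in WT without its filters and 56 with its default filters. Of the 9 it called 1 without its filters (*Prkcq*) and 4 with its default filters (*Cd226*, *Cd27*, *Il27ra* and *Prkcq*). These 4 are also among the genes that the study listed for WT from these samples, so they are not independent evidence of a direction. The WT contrast rests on 2 vehicle libraries, and leaving out either leaves 1. The median of the 9 was 1.46 without mouse 107 (0.11 over all genes) and 1.35 without mouse 122 (0.03). *Cd3g* was at 0.67 without mouse 107 and 1.84 without mouse 122, and *Cd3e* at 2.65 without mouse 107. Without both libraries of low protein-coding share *Cd3e* was at 0.64 and *Cd28* at 0.91.

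In KO all 9 fold changes were again positive, with a median of 0.88 against -0.03 over all genes. edgeR called 0 of the 9 and 0% of all genes. DESeq2 called 0 of the 9, and 68 of all genes without its filters and 51 with its default filters. At an unadjusted p under 0.05, 7 were higher (*Cd226*, *Cd3d*, *Cd3e*, *Cd3g*, *Il27ra*, *Lck* and *Prkcq*) against 3.74% of all genes. All but *Cd28* had every PFOA library above every vehicle library, which held for 6.82% of all genes. *Cd3d* (1.29 ± 0.51), *Lck* (1.19 ± 0.33) and *Cd3e* (1.01 ± 0.38) had the largest log2 differences, with edgeR adjusted p-values of 0.483, 0.458 and 0.483. *Cd28* (0.29 ± 0.42) and *Cd27* (0.52 ± 0.32) had the smallest. With the library index as a covariate the 7 genes at an unadjusted p under 0.05 became 2.

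In KI the differences were small and of both signs. The median was 0.17 against 0.01 over all genes, and it was -0.02 without PFOA mouse 80 and -0.04 with the library index as a covariate. Of the 9 genes 5 were positive, and edgeR and DESeq2 called 0 (0% of all genes by edgeR, 1 gene in all by DESeq2). At an unadjusted p under 0.05, 0 of the 9 were higher, against 1.47% of all genes. Only *Cd27* had all PFOA libraries above all vehicle libraries (4.45% of all genes), with a log2 difference of 0.32 ± 0.32. *Cd3d* was at 0.51 ± 0.52 and *Cd28* at 0.38 ± 0.40, while *Il27ra* was at -0.51 ± 0.29 and *Cd3g* at -0.36 ± 0.33. *Lck* (-0.01 ± 0.33) and *Prkcq* (-0.04 ± 0.18) were near 0, and their sign depends on single libraries.

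**Figure D2:**
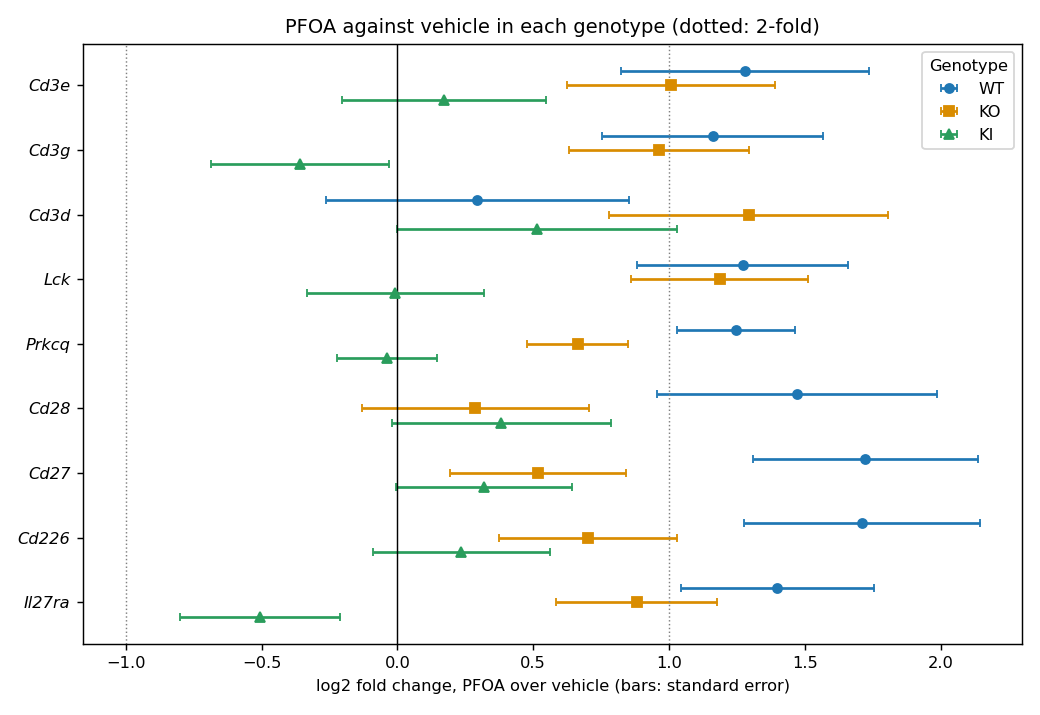
Log2 fold change of PFOA over vehicle (horizontal axis) for the 9 genes (vertical axis) in the 3 genotypes, with the standard error of edgeR's fit as bars and dotted lines at a 2-fold change. WT values lie above 1 for every gene but *Cd3d*, KO values are all above 0, and KI values lie between -0.51 and 0.51.

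The same genes read over the 3 genotypes in an additive model had log2 differences between 0.50 (*Il27ra*) and 0.77 (*Lck*), with a median of 0.72 against -0.01 over all genes. edgeR called 0 of the 9 (0% of all genes). DESeq2 also called 0 of the 9, and 26 of all genes without its filters and 28 with its default filters. By edgeR 7 had an unadjusted p under 0.05 and were higher, where 3.80% of all genes were. *Prkcq*, at 0.56 ± 0.16, had the smallest edgeR adjusted p among them, 0.436. *Cd3g* and *Il27ra*, whose KI values were negative, were the pair that missed the unadjusted threshold. The 7 became 5 without KO V mouse 145 or KO PFOA mouse 155 and 9 without KI V mouse 102 or KI PFOA mouse 57. The median of 0.72 became 0.55 without WT V mouse 122 and 0.51 without both libraries of low protein-coding share.

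Whether the effect of PFOA differed between genotypes was tested as a difference of the fold changes. Between KI and WT it was negative for 8 of the 9 genes, with a median of -1.28 and *Cd3d* (0.22 ± 0.75) as the exception. At an unadjusted p under 0.05, 6 genes were lower in KI, against 2.39% of all genes. With the library index as a covariate the 6 became 4. *Cd226*, *Cd27*, *Il27ra* and *Prkcq*, which the study listed for WT, are not independent evidence here either. *Il27ra* differed most, by -1.91 ± 0.46 on the log2 scale, followed by *Cd3g* (-1.52 ± 0.52), *Cd226* (-1.47 ± 0.54), *Cd27* (-1.40 ± 0.52), *Prkcq* (-1.28 ± 0.28) and *Lck* (-1.28 ± 0.51). Their edgeR adjusted p-values were all 0.999, and edgeR and DESeq2 called 0 (0% of all genes by edgeR, 1 gene in all by DESeq2). Leaving out a WT V mouse leaves 1 WT V library. The median was then -1.89 without mouse 107 and -1.19 without mouse 122. *Cd3e* was at -2.48 and *Cd27* at -2.37 without mouse 107, and at -0.47 and -0.89 without mouse 122. Between KO and WT the median difference was -0.52. Only *Cd27*, at -1.20 ± 0.52, was lower at an unadjusted p under 0.05, against 4.89% of all genes. That count was 0 with the library index as a covariate and without WT PFOA mouse 50, KO V mouse 149 or KO PFOA mouse 154, and 3 without WT V mouse 107 or KO V mouse 137. edgeR and DESeq2 called 0 (0% of all genes by edgeR, smallest adjusted p 0.669, and 3 genes in all by DESeq2).

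**Figure D3:**
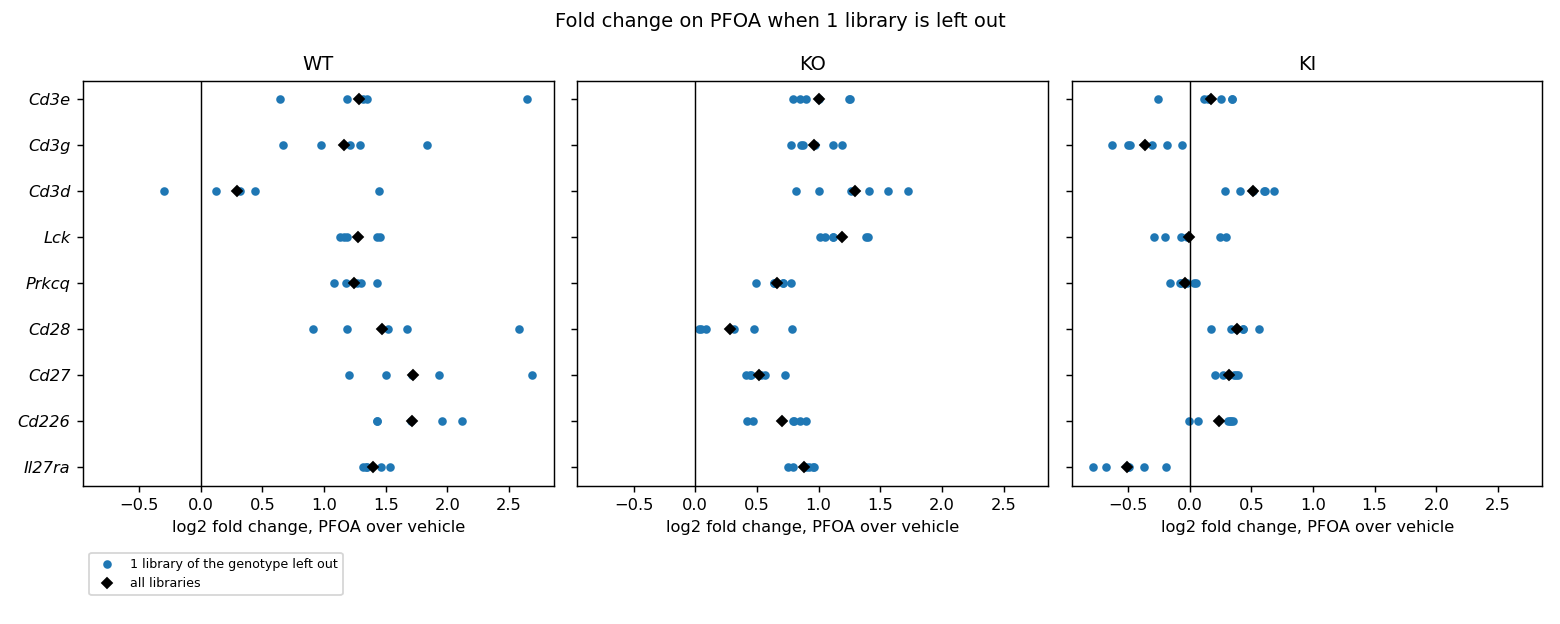
Log2 fold change of PFOA over vehicle (horizontal axis) for the 9 genes in each genotype with all libraries (black) and with 1 library of that genotype left out at a time (blue). In WT the values for *Cd3e*, *Cd3d*, *Cd28* and *Cd27* spread widest, *Cd27* from 1.20 to 2.69, whereas *Il27ra* stayed between 1.32 and 1.54.

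Levels on vehicle were compared between genotypes next, with the same 2 WT V libraries as in the WT exposure contrast. Both carried one second index that no KO V or KI V library had, so index and genotype cannot be told apart on vehicle. In fits with the index as a covariate, the effect of that index comes from PFOA libraries alone. *Cd226*, *Cd27*, *Il27ra* and *Prkcq* were listed by the study for WT from the same WT V libraries. They are not independent evidence of a genotype difference on vehicle. In KO V, edgeR called 2 of the 9 genes higher than in WT V, where it called 1.37% of all genes. *Cd226* averaged 6.54 CPM ± 2.32 (SD, n = 3) in KO V against 1.94 CPM ± 0.653 (SD, n = 2) in WT V, a log2 difference of 1.76 ± 0.44 with an adjusted p of 0.110. *Cd27* averaged 3.38 CPM ± 0.791 against 1.26 CPM ± 0.855, a log2 difference of 1.39 ± 0.42 with an adjusted p of 0.196. *Cd28* (1.23 ± 0.53) and *Prkcq* (0.53 ± 0.22) joined them at an unadjusted p under 0.05, which makes 4 genes against 8.74% of all genes. The 4 became 1 with only the groups compared and 2 with the library index as a covariate. *Cd3d* was the one gene with a negative value, -0.59 ± 0.58. Leaving out KO V mouse 145 left 0 of the 9 called, with 279 genes called in all. Leaving out a WT V mouse leaves 1 WT V library. *Cd27* was then at 0.88 without mouse 122 and 2.36 without mouse 107, and *Cd226* at 1.48 without mouse 122. Without both libraries of low protein-coding share *Cd28* was at 0.17.

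In KI V, edgeR called *Cd226* alone (0.857% of all genes), at 7.26 CPM ± 1.54 (SD, n = 3) against 1.94 CPM in WT V, a log2 difference of 1.88 ± 0.43 with an adjusted p of 0.090. At an unadjusted p under 0.05, 7 of the 9 were higher in KI V, against 5.33% of all genes. *Cd27* (1.41 ± 0.42), *Cd28* (1.41 ± 0.52), *Cd3g* (1.37 ± 0.41) and *Il27ra* (1.21 ± 0.36) were each more than 2-fold higher, with edgeR adjusted p-values from 0.223 to 0.385. *Prkcq* passed the adjusted threshold (log2 difference 0.82 ± 0.22, edgeR adjusted p 0.161) but was under 2-fold. The median of the 9 was 1.21 in KI V and 0.66 in KO V, against 0.01 and 0.05 over all genes. The 7 became 4 without WT V mouse 122 and with the library index as a covariate. The call depended on single libraries. edgeR called 0 without KI V mouse 102 (95 genes in all). It called 4 without KO V mouse 137 (439 in all) or without KI V mouse 116 (402 in all). Leaving out a WT V mouse leaves 1 WT V library, and the median was then 0.94 without mouse 122 and 1.28 without mouse 107. Without both libraries of low protein-coding share *Cd3e* was at 0.35.

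On PFOA each of KO and KI was compared with WT again. edgeR called 0 of the 9 in KO against WT (1.01% of all genes) and 0 in KI against WT (0.527%), and DESeq2 called 0 in both. Over all genes DESeq2 called 342 in KO and 166 in KI without its filters. *Cd226* was higher in KO, by 0.75 ± 0.32 on the log2 scale, the only one of the 9 at an unadjusted p under 0.05 (4.50% of all genes). That count was 0 without WT PFOA mouse 50 or KO PFOA mouse 52 and 3 without KO PFOA mouse 154. *Il27ra* (-0.69 ± 0.29) and *Prkcq* (-0.46 ± 0.18) were lower in KI at an unadjusted p under 0.05, as were 2.13% of all genes, and 0 of the 9 were without WT PFOA mouse 65 and 1 without WT PFOA mouse 50 or without KI PFOA mouse 57 or 139. The medians were 0.35 for KO and -0.15 for KI. Leaving out 1 library gave 0.12 (without KO PFOA mouse 155) to 0.59 (without mouse 154) for KO, and -0.41 (without KI PFOA mouse 80) to 0.03 (without mouse 57) for KI. With sex as a covariate the medians were 0.06 for KO, whose mice were all female, and -0.31 for KI.

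Within libraries of one second index the WT difference could be read in part: WT PFOA mouse 65, which shared its index with both WT V mice, was above them for 8 of the 9 genes, all but *Cd3d*, as it was for 32.1% of all genes. In KI, PFOA mouse 80 was above the vehicle mouse of its index for 6 genes (50.7% of all genes), and PFOA mouse 139 for 3 (46.6%). In KO no index held both exposures. Within sex, the female WT PFOA mouse was above the female WT V mouse for 8 genes (48.1% of all genes), and both male WT PFOA mice were above the male WT V mouse, the library of low protein-coding share, for all 9 (39.1%). KO mice were all female. In KI the PFOA mice were above the vehicle mice for 2 genes in females (15.3% of all genes) and 5 in males (50.8%).

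The wider pathway was read from lists of genes that are not among the 9. Of 27 other genes of T cell receptor signaling, edgeR called 0 on PFOA in any genotype, and at an unadjusted p under 0.05, 7 were higher in WT, 15 in KO and 0 in KI. Of all 26946 genes tested, 3.12%, 3.74% and 1.47% were higher at that threshold, shares that also apply to the lists below. None of the 27 was lower at that threshold, against 1141 of all genes in WT, 1632 in KO and 303 in KI. The median log2 differences of the 27 were 0.39, 0.67 and 0.08. The genes with the smallest p in WT were *Themis*, a regulator of receptor signal strength (1.32 ± 0.41), *Grap2*, an adaptor (0.93 ± 0.29), and *Cd4*, the helper T cell coreceptor (1.35 ± 0.47). In KO they were *Fyb*, an adaptor (1.10 ± 0.27), *Cd247*, the CD3 zeta chain (0.92 ± 0.24), and *Ptprc*, the leukocyte phosphatase CD45 (1.08 ± 0.29).

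Among 18 other costimulatory and inhibitory receptors edgeR called 0 on PFOA in each genotype, and 2 in WT, 3 in KO and 0 in KI were higher at an unadjusted p under 0.05. In WT these were *Slamf1* (1.75 ± 0.59) and *Cd160* (1.36 ± 0.56). In KO they were *Cd244a* (1.10 ± 0.32), *Cd2* (1.01 ± 0.31) and *Cd5* (1.08 ± 0.34), and in KI *Cd5* was lower (-0.83 ± 0.34). Several classical members were close to the floor: *Pdcd1*, *Ctla4*, *Tigit* and *Tnfrsf9* averaged 0.408, 0.716, 0.634 and 0.438 CPM over the libraries. Of 12 tested ligands and partner subunits, among them the CD28 ligands *Cd80* and *Cd86*, the CD226 ligands *Pvr* and *Nectin2* and the interleukin 27 subunits *Il27* and *Ebi3*, edgeR called 0 in each genotype, and 0 in WT, 0 in KO and 1 in KI (*Cd274*, 0.59 ± 0.23) had an unadjusted p under 0.05 and were higher. Their median log2 differences were -0.07, 0.17 and 0.19.

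Of 12 T cell transcription factors, edgeR called 0 on PFOA in each genotype, and 4 in WT, 6 in KO and 0 in KI were higher at an unadjusted p under 0.05, with 1 lower in KO. *Lef1* (0.89 ± 0.22) and *Tcf7* (0.63 ± 0.22), factors of naive T cells, had the smallest p in WT. In KO *Tcf7* (0.82 ± 0.19), *Bcl11b* (1.03 ± 0.27) and *Ikzf1* (1.11 ± 0.33) did.

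Of 9 tested NK cell markers, 6 in WT and 4 in KO were higher on PFOA at an unadjusted p under 0.05, and 0 in KI, with edgeR calling 0 in each. The markers summed to between 4.26 and 8.52 CPM in WT V and between 13 and 25.4 CPM in WT PFOA. They ran from 25.6 to 29.3 CPM in KO V, from 47.0 to 64.6 CPM in KO PFOA, from 20.9 to 40.6 CPM in KI V and from 30.3 to 46.3 CPM in KI PFOA. On vehicle edgeR called 6 of the 9 NK markers higher in KO than in WT and 6 in KI, led by *Ncr1*, the NK cell receptor NKp46, at 4.16 ± 0.70 (adjusted p 0.0114) and 4.43 ± 0.69 (adjusted p 0.00472). On PFOA, where *Cd226* was also higher in KO, edgeR called 5 of the 9 NK markers higher in KO than in WT and 1 in KI, with *Ncr1* at 2.14 ± 0.41 (adjusted p 0.0186) and 1.47 ± 0.41 (adjusted p 0.274). Of all genes edgeR called, in either direction, 1.37% (KO) and 0.857% (KI) on vehicle and 1.01% and 0.527% on PFOA. *Ncr1*, *Klre1*, *Gzmb* and *Eomes* were at 0 in 1 library each, and *Klra8*, which was not tested, in 11. *Eomes* also stands in the list of transcription factors. Their part in the values of *Cd226*, *Cd27*, *Prkcq* and *Il27ra* was not tested.

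B cell markers, 7 in all and above 0 in every library, summed to between 11 and 20.5 CPM in WT V and between 19.7 and 32.7 CPM in WT PFOA. Their range was 31.6 to 47.8 CPM in KO V, 59.8 to 121 CPM in KO PFOA, 17.7 to 160 CPM in KI V and 30.8 to 74.1 CPM in KI PFOA. At an unadjusted p under 0.05, 0 were higher in WT and KO, and in KI 1 was lower. On vehicle edgeR called 3 of the 7 higher in KI than in WT (*Ms4a1*, *Cd79b* and *Cd79a*) and 0 in KO, and on PFOA 1 in KO (*Ms4a1*) and 0 in KI. Of 8 myeloid markers 0 in WT, 5 in KO and 1 in KI were higher on PFOA at an unadjusted p under 0.05. Airway epithelium markers went the other way in WT, with 6 of 7 lower at an unadjusted p under 0.05, against 1141 of all 26946 genes. They summed to 11589 and 25235 CPM in the WT V libraries and to between 4842 and 10982 CPM in the other 15. Of 8 alveolar and endothelial markers, and of 7 muscle markers, 0 passed that threshold on PFOA in any genotype. Of 6 tested markers of lymph node or thymus tissue, 0 in WT and KI and 1 in KO were higher, and 1 in KO was lower. Between genotypes on vehicle, 6 of the 7 muscle markers were higher in KI than in WT at an unadjusted p under 0.05 (5.33% of all genes). Their median was 3.06 on the log2 scale with 0 called, and edgeR called 2 airway markers lower in KO (*Cyp2f2* and *Scgb1a1*). For PFOA against vehicle edgeR called none of these markers in any genotype, and their part in the values of the 9 genes was not tested.

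**Figure D4:**
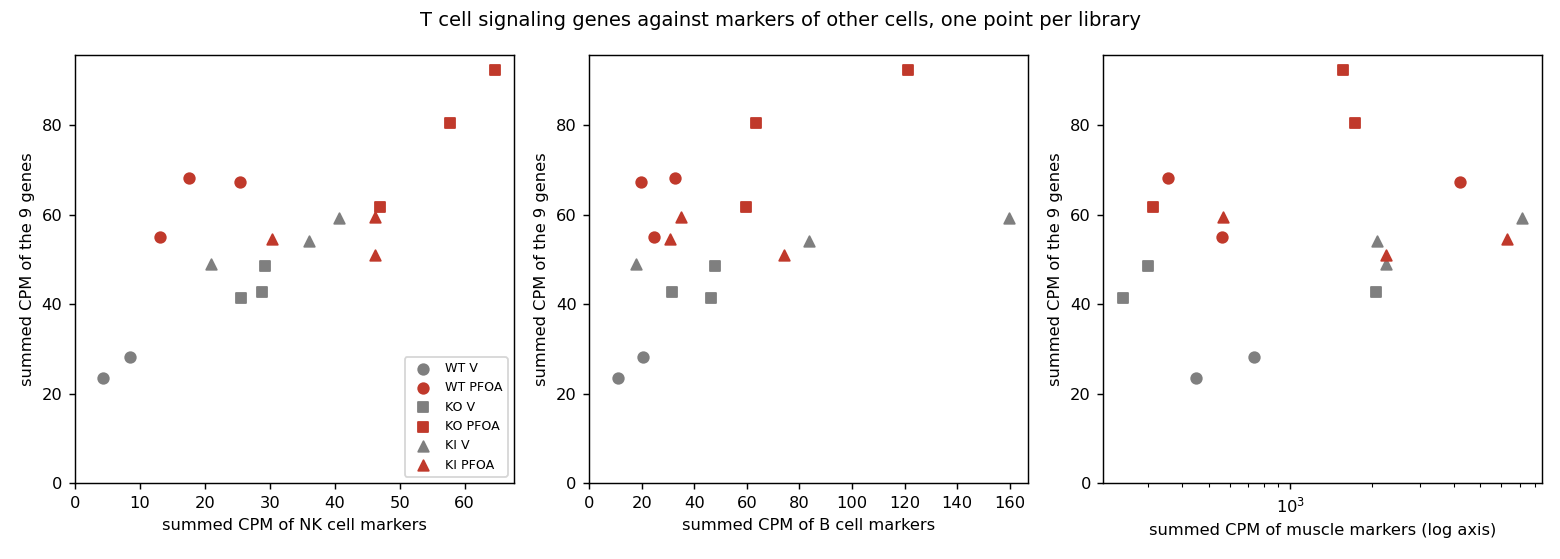
Summed CPM of the 9 genes (vertical axes) against the summed CPM of NK cell, B cell and muscle markers (horizontal axes, the last on a log scale), one point per library, with the genotype as the shape and the exposure as the colour. The 2 WT V libraries are lowest on the vertical axis and on the NK axis, at 4.26 and 8.52 CPM, and KO PFOA mouse 155 is highest on both.

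The 9 genes were compared with each other across libraries as a description, since libraries share depth and groups. Over the 17 libraries the 36 pairs had a median Pearson's r of 0.64 between log2 CPM values. *Cd3e* and *Cd27* were the most alike (0.87), and *Cd3g* and *Cd3d*, which lie back to back on the chromosome, the least (0.20). After each group's mean was removed the median r was 0.16, with *Cd3e* and *Cd3d* at 0.77 and *Cd3e* and *Cd3g* at -0.07.

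**Figure D5:**
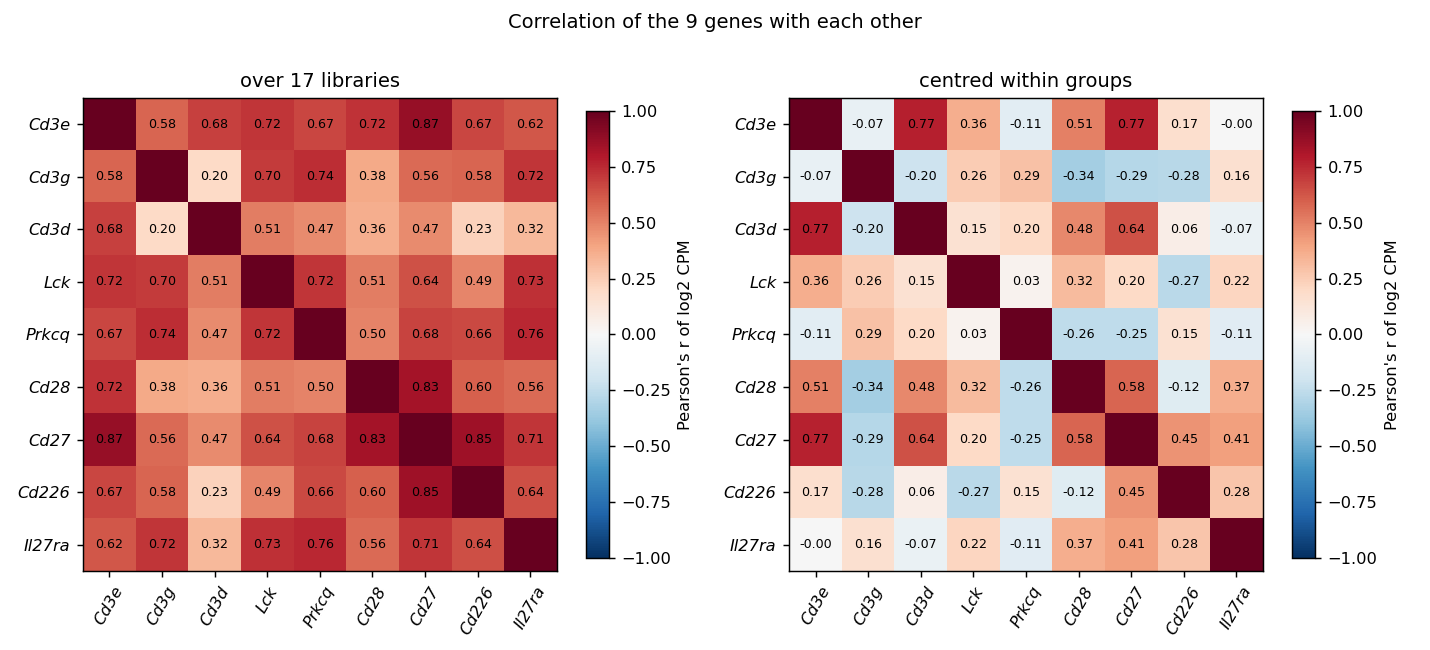
Pearson's r of log2 CPM for each pair of the 9 genes over the 17 libraries (left) and after removing each group's mean (right), on a colour scale from -1 to 1 with the values written in. The left panel is positive throughout, from 0.20 to 0.87, and the right panel runs from -0.34 to 0.77.

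Of 18000 genes averaging 10 or more counts, the one whose pattern was most like the mean of the 3 CD3 chains, the chains themselves and the other 6 genes aside, was *Lef1* (Pearson's r 0.90 over 17 libraries). *Sash3* (0.86), *Tcf7* (0.86), *Il12rb2* (0.85), *Cd8b1* (0.85), *Il7r* (0.84), *Was* (0.84), *Fut4* (0.83), *Il2rb* (0.83) and *Prf1* (0.83) followed. *Lef1* and *Tcf7* code for transcription factors of T cells, *Cd8b1* for a chain of the CD8 coreceptor, *Il7r*, *Il2rb* and *Il12rb2* for cytokine receptor subunits, and *Prf1* for perforin. Of the 6 genes outside the CD3 complex, *Cd27* (0.79) and *Lck* (0.79) were closest to the CD3 mean, and *Cd226* and *Cd28* (0.61 each) farthest. That order includes differences between groups. After each group's mean was removed, r with the CD3 mean was 0.62 for *Cd27*, 0.38 for *Cd28* and 0.36 for *Lck*. It was 0.16 for *Prkcq*, 0.03 for *Il27ra* and 0.02 for *Cd226*.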

How the data were processed

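The authors built lung libraries with the SMARTer Stranded Total RNA-Seq v2 Pico kit, used STAR within Partek for alignment to the mm10 build, and deposited estimated counts per gene, not normalized, of which 31.3% of values were not whole. No column fell outside the sample list (0). Here the counts were rounded, genes with a total of at least 20 were kept (26946, with 4299 left out), and edgeR 4.0.16 (R 4.3.3) scaled the 17 libraries by TMM and fitted one coefficient per group, or genotype plus exposure for the effect over genotypes, by the quasi-likelihood method. P-values were adjusted over all tested genes by Benjamini-Hochberg. DESeq2 1.42.0 was run beside it. Adjusted p-values in the text are edgeR's unless DESeq2 is named. ± after a log2 difference is the standard error. The 9 genes, the pathway and marker lists and the tests were chosen with earlier results of these data known. Named genes were the 9, up to 3 genes of smallest p per list and comparison, the 10 genes most correlated with the CD3 mean, *Ppara*, and, chosen after their values were seen, list members near the floor or at 0. Promoter entries from RefSeq matched 6 of the 9 symbols (7 entries). Entries for *Cd28*, *Cd226* and *Il27ra* were not used here. Gene positions and exon lengths came from GENCODE M21, in which 96.7% of the table's gene names were found once, 99.4% of these at the same start. Replicates were separate mice, and no pair of libraries in a group agreed within sampling noise. On simulated counts for the WT exposure contrast (26487 genes, 200 changed 4-fold), edgeR recovered 181 with 19 other calls and DESeq2 178 with 19. The changed genes averaged at least 10 counts, the spread was edgeR's trend, and no library of low protein-coding share was simulated. The recovery is therefore not the power of the real WT contrast, nor that for changes under 4-fold. A WT vehicle library that the study set aside was not analysed here.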

Additional observations from a re-analysis of the deposited data

How the results depend on the processing

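No paired analysis was possible because the labels give no replicate number that groups share. Counts of the 9 genes called moved as follows. Fits that leave out only WT V mouse 107 or only mouse 122 keep 1 WT V library, so their counts are not given. In all other settings the counts stayed at the values of the report. For PFOA in WT (0 by edgeR), DESeq2 called 1 without its filters and 4 with its default ones, and leaving out 1 library gave 0 to 6, the 6 without WT V mouse 107. For the KI effect against the WT effect the range was 0 to 3, the 3 again without mouse 107. That setting leaves 1 WT V library, mouse 122, which is assumed to vary like the other groups and has a low protein-coding share. For KO against WT on vehicle (2 by edgeR), 1 gene (*Cd226*) was called with no filter, with sex or with library index as a covariate, or with robust estimation, and 0 with only the groups compared, without both libraries of low protein-coding share (chosen after seeing the data) or at an adjusted p under 0.05. Leaving out 1 library of a group other than WT V gave 0 to 2, and 1 for most libraries. For KI against WT on vehicle (1 by edgeR), DESeq2 called 2 without its filters and 4 with them, among 332 and 387 genes called in all. It was also 4 with filterByExpr, with a mean of at least 20 counts or with the protein-coding share as a covariate (chosen after seeing the data), 2 with no fold threshold, and 0 with only the groups compared, without both libraries of low protein-coding share or at an adjusted p under 0.05. In all, 283 genes were called with filterByExpr, 233 with a mean of at least 20 counts and 469 with the protein-coding share. Leaving out 1 library of a group other than WT V gave 0 to 4 of the 9. The causes were not tested.

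Of 67 fold changes under up to 30 alternatives, 1910 values kept direction and side of the threshold, 39 became calls, 29 lost a call and 16 reversed. The *Cd3d* difference reversed most often. Leaving out 1 library gave it -0.30 to 1.45 for PFOA in WT (-0.30 without both low-share libraries), -1.18 to 0.57 for KO and -1.14 to 0.61 for KI against WT on vehicle, and -0.94 to 0.81 for the KI effect against the WT effect, each from WT V mouse 122 or 107. *Cd3e* in KO against WT on vehicle ran from -0.010 (without mouse 122, and -0.012 without both low-share libraries) to 1.99. For PFOA in KI, leaving out 1 library gave -0.26 to 0.35 for *Cd3e*, -0.16 to 0.054 for *Prkcq*, -0.0048 to 0.35 for *Cd226* (-0.065 with library index as a covariate) and -0.29 to 0.29 for *Lck* (0.0056 with the protein-coding share as a covariate). Counts in WT V mouse 122 were as low as 4 for *Cd27* and *Cd28* and 5 for *Cd3d*, which limits their precision.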
